A study of Sus scrofa with 12 samples.

Results

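The mitochondrial ribosomal protein genes were taken as every row of the deposited count table whose gene symbol starts with MRPL or MRPS followed by a digit. The rule found 66 genes among 29329 rows, 41 named for the large subunit (MRPL) and 25 for the small subunit (MRPS). The RNA came from Sus scrofa embryos fertilised in vitro and was read by SMART-seq, in which polyadenylated RNA of very small inputs is copied to full-length cDNA and amplified. There were 12 libraries in 4 groups of 3, named here by their titles: con-2c and con-4c came from embryos labelled blank control (the NC group of the study), and si-2c and si-4c from embryos labelled si-CCNB2 (the KD group), in which a short interfering RNA against the mitotic cyclin CCNB2 had been injected. All groups shared the same source, with oocytes matured in vitro from Long White gilts and semen from Landrace boars, and each library was a pool of whole embryos. The titles give 2c or 4c as the stage, while the tissue label gives the other stage in all 12 libraries, so the group names stand for the titles only, and reading the tissue label in their place would turn the sign of every stage difference. The methods describe injection of negative controls and call the SMART-seq controls both normal and the Si-CCNB2 NC group, while the labels say blank control. It is therefore unclear whether these control embryos had been injected, so injection and CCNB2 depletion cannot be told apart in a comparison of si with con libraries.

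Mitochondria make a small set of respiratory chain subunits on ribosomes of their own. The ribosomal RNAs of these ribosomes and the subunits they translate are encoded in mitochondrial DNA, whereas every protein of the ribosome is encoded in the nucleus, made in the cytosol and imported. Of these proteins, some descend from bacterial ribosomal proteins and others are additions found in mitochondria. Early embryos inherit their mitochondria and a store of these mRNAs from the oocyte, and transcription from the embryonic genome replaces that store during the cleavage divisions. In these pools, fewer cells holding a transcript and less transcript per cell cannot be told apart.

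Library totals were 27785233 to 39510908 counts, and the mean CPM of CCNB2 (counts relative to the TMM-scaled library total, mean ± SD, n = 3) was 464 ± 21.7 across con-2c, 475 ± 41.9 across con-4c, 22.7 ± 5.58 across si-2c and 42.6 ± 3.65 across si-4c. Oocyte and embryo markers were present in every library (11 of 12 listed genes in the table, summed level 10792 to 25937 CPM, most of it BTG4), with 20641 to 25541 CPM across con-2c libraries, 10792 to 11621 across con-4c, 11031 to 12745 across si-2c and 23647 to 25937 across si-4c. Of 15 cumulus cell markers 10 were in the table, and their summed level moved with the groups, at 294 to 371 CPM across con-2c, 179 to 191 across con-4c, 173 to 202 across si-2c and 294 to 304 across si-4c. Nearly all of it was VCAN, and HAS2 and CYP11A1 had 4 and 2 counts over the 12 libraries. Other cumulus markers were low and did not move alike. COL3A1 had a mean of 0, 1.69, 1.04 and 0 CPM in the same order of groups, and TNFAIP6 had 0.316, 1.04, 0.848 and 0.08995 CPM. COL1A2 was level, at 3.44, 3.47, 3.23 and 3.58 CPM. CYP19A1 was highest in con-2c, at 0.715, 0.208, 0.505 and 0.475 CPM. Of the 7 cumulus markers tested, edgeR called 1 higher in con-4c and 2 higher in si-2c, each against con-2c, while si-4c had 2 lower than con-4c and 1 lower than si-2c. The shares of all genes in these comparisons were 14.4%, 10.7%, 15.8% and 11.9%. Of 10 sperm markers 4 were in the table, at 6.59 to 9.62, 9.93 to 14.0, 10.4 to 16.2 and 9.76 to 11.8 CPM in the same order of groups, most of it ODF2. AKAP4 had a mean of 0, 0.348, 0.648 and 0 CPM, while SPACA1 had 0.0922, 0.0974, 0.0325 and 0.175 CPM. Of 2 sperm markers tested edgeR called 1, higher than con-2c in both con-4c and si-2c and lower in si-4c than in either of these. COL3A1 and AKAP4 had a mean of 0 CPM in con-2c and si-4c, so they could pass the filter on low counts only through the other groups. Calls of these markers are description only. The part of these markers in the results below was not tested.

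All 66 members passed the filter on low counts. Their counts in a single library ran from 0 to 29877, and 44 members had a mean of at least 10 CPM over the 12 libraries while 3 (MRPL10, MRPL12 and MRPL38) were below 1 CPM. The summed level of the members was 4425 ± 75.4 CPM across con-2c, 3252 ± 62.8 across con-4c, 3254 ± 169.7 across si-2c and 4479 ± 261 across si-4c (mean ± SD, n = 3). The con-2c and si-4c libraries thus lay above all con-4c and si-2c libraries. As a share of the unscaled counts the groups stood closer, at 0.393% ± 0.0227, 0.349% ± 0.00146, 0.380% ± 0.00611 and 0.402% ± 0.0133, and the ranges of con-2c and si-2c overlapped. A handful of abundant members carried much of the sum, since MRPS14, MRPL18, MRPS10, MRPL15 and MRPL43 took 48.6% of it across con-2c, 38.0% across con-4c, 43.4% across si-2c and 49.8% across si-4c.

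**Figure D1:**
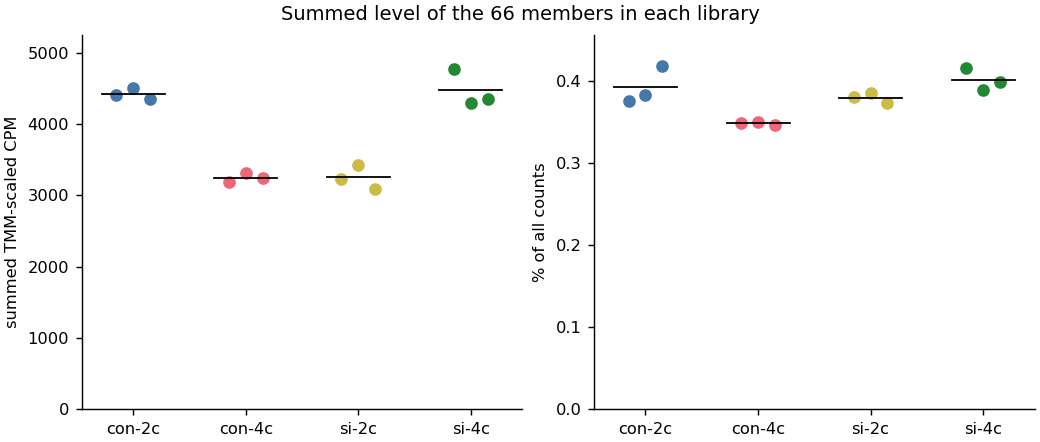
Summed level of the 66 members in each library, as TMM-scaled CPM on the left and as a percentage of all counts on the right; points are libraries and lines are group means. The summed CPM of con-2c and si-4c libraries lies above that of con-4c and si-2c libraries, and the percentages lie closer together.

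The comparison of con-4c with con-2c asked how these mRNAs differ between the stages of control embryos. A call required a Benjamini-Hochberg adjusted p under 0.05 in the quasi-likelihood test of edgeR and a log2 change of 1 or more in size. By that rule 11 members were higher in con-4c and 5 were lower, while 50 were not called. Over the 17995 genes tested, 14.4% were called higher and 3.25% lower, so the members' share of higher calls (16.7%) was near the background and that of lower calls was 7.58%. With library totals as the only scaling, which raised the median of all genes from 0.11 to 0.38, the split was 14 higher and 3 lower, and without con-4c replicate 2 it was 11 higher and 8 lower. The members' median log2 fold change was -0.16 against 0.11 for all genes, and under library totals it was 0.09 against 0.38, so its sign depended on the scaling. Its distance from the median of all genes was -0.27 and -0.29 under these scalings, -0.14 with a stricter filter (10 CPM in 3 libraries, 50 members) and -0.32 without a filter. Without a minimum fold, 15 members were higher and 24 lower at an adjusted p below 0.05, beside 20.7% and 15.1% of all genes. The libraries of both groups did not overlap in 44 members, and in 48.6% of all genes.

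Among members named for the small subunit, 6 were higher in con-4c. MRPS11, a homologue of bacterial S11 on the platform of the small subunit (chr1:191310547-191321951 in Sscrofa11.1), had 2.196, 3.09 and 1.23 CPM across con-2c libraries, 15.6, 12.7 and 13.7 across con-4c, 3.51, 4.69 and 2.68 across si-2c, and 2.94, 2.11 and 3.58 across si-4c. Every con-4c library was above all con-2c libraries (log2 change 2.68, SE 0.30, adjusted p = 2.14e-06 by edgeR). Both si groups lay far below con-4c, and their ranges overlapped. MRPS7, the homologue of bacterial S7 in the head of the small subunit (chr12:6052109-6055669), had 3.501, 3.15 and 3.75 CPM across con-2c libraries, 10.7, 13.2 and 12.6 across con-4c, 7.11, 9.83 and 6.78 across si-2c, and 2.699, 2.23 and 3.82 across si-4c. Its con-4c libraries were the highest and its si-2c libraries stood between them and the remaining groups (log2 change 1.81, SE 0.22, adjusted p = 4.55e-06 by edgeR). MRPS15 (chr6:92541506-92547839), which binds the ribosomal RNA directly in bacteria, had 1.94, 1.01 and 2.58 CPM across con-2c libraries, 5.99, 3.78 and 4.62 across con-4c, 2.34, 1.21 and 1.95 across si-2c, and 1.56, 1.27 and 2.15 across si-4c. Only the con-4c libraries stood apart from the others in this gene (log2 change 1.38, SE 0.36, adjusted p = 0.00611 by edgeR). MRPS12 (chr6:47728518-47732042), the homologue of the S12 protein of the decoding centre, was close to the floor with 13, 10 and 0 counts in the con-2c libraries and 90, 89 and 32 in con-4c. The con-4c libraries were above those of con-2c, with few counts behind the value (log2 change 3.27, SE 0.75, adjusted p = 0.00239 by edgeR). The si-2c libraries held 27, 27 and 14 counts, all below con-4c, while si-4c held 26, 42 and 56 and overlapped con-4c.

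The MRPS18 family holds 3 nuclear paralogues of bacterial S18, and they differed from each other. MRPS18A, which structures place in the large subunit despite its symbol (chr7:38641755-38657472), had 2.58, 4.28 and 3.84 CPM across con-2c libraries, 18.9, 21.3 and 17.1 across con-4c, 8.502, 13.4 and 8.58 across si-2c, and 5.16, 2.75 and 4.75 across si-4c. It was higher in con-4c (log2 change 2.42, SE 0.25, adjusted p = 9.87e-07 by edgeR), and the si-2c libraries lay between con-4c and the remaining groups. MRPS18C (chr8:135019702-135026719) had 6.78, 7.19 and 6.702 CPM across con-2c libraries, 18.5, 18.8 and 17.4 across con-4c, 6.48, 7.85 and 5.34 across si-2c, and 6.24, 6.16 and 5.29 across si-4c. Here con-4c alone stood high (log2 change 1.40, SE 0.16, adjusted p = 2.16e-06 by edgeR), while the si-2c range overlapped that of con-2c. MRPS18B (chr7:23166314-23172718) had 24.2, 28.7 and 33.4 CPM across con-2c libraries, 25.8, 22.3 and 22.3 across con-4c, 23.9, 24.5 and 22.6 across si-2c, and 34.6, 28.3 and 28.5 across si-4c. Its con-2c and con-4c libraries overlapped and it was not called (log2 change -0.29, SE 0.13, adjusted p = 0.0827 by edgeR).

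Of the members named for the large subunit, 5 were higher in con-4c. MRPL17, a homologue of bacterial L17 (chr9:3075986-3077859), had 2.51, 3.45 and 3.81 CPM across con-2c libraries, 33.5, 31.4 and 29.9 across con-4c, 12.2, 15.2 and 11.6 across si-2c, and 3.21, 4.83 and 4.33 across si-4c. The con-4c libraries were well above con-2c (log2 change 3.28, SE 0.19, adjusted p = 5.91e-10 by edgeR), and no library of con-2c or si-4c reached any library of con-4c or si-2c. MRPL50, a protein of the mitochondrial ribosome without a bacterial counterpart (chr1:243100365-243106831), had 12.9, 15.99 and 13.3 CPM across con-2c libraries, 64.8, 76.8 and 64.3 across con-4c, 42.3, 45.96 and 43.04 across si-2c, and 16.2, 17.1 and 14.9 across si-4c. The order of the groups was that of MRPL17 (log2 change 2.29, SE 0.11, adjusted p = 8.07e-11 by edgeR). MRPL51 (chr5:64167418-64168986), also particular to mitochondria, had 17.9, 22.4 and 24.6 CPM across con-2c libraries, 46.1, 40.5 and 50.1 across con-4c, 30.3, 29.9 and 30.1 across si-2c, and 25.5, 23.8 and 21.3 across si-4c. It was just past the fold threshold (log2 change 1.07, SE 0.12, adjusted p = 2.59e-06 by edgeR) and fell short of it without con-2c replicate 1 (0.95) or without con-4c replicate 3 (0.9974). MRPL28 (chr3:41330412-41333520), a homologue of bacterial L28, had 0.573, 0.535 and 1.88 CPM across con-2c libraries, 7.21, 5.501 and 4.096 across con-4c, 1.88, 1.93 and 0.622 across si-2c, and 0.9598, 0.636 and 0.657 across si-4c. MRPL27 (chr12:26663884-26670167), whose bacterial homologue reaches the peptidyl transferase centre, had 2.71, 2.29 and 3.41 CPM across con-2c libraries, 7.21, 8.68 and 6.63 across con-4c, 4.07, 3.43 and 2.77 across si-2c, and 2.73, 3.07 and 2.87 across si-4c. In both genes con-4c was the only group that stood clear of the others (MRPL28, log2 change 2.49, SE 0.49, adjusted p = 7.14e-04 by edgeR; MRPL27, log2 change 1.42, SE 0.23, adjusted p = 9.68e-05 by edgeR).

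The 5 members that were lower in con-4c included the most abundant one. MRPS14, a homologue of bacterial S14 (chr9:117097841-117137188), had 766, 823 and 755 CPM across con-2c libraries, 315, 346 and 331 across con-4c, 473, 484 and 457 across si-2c, and 896, 798 and 849.6 across si-4c. All con-4c libraries were below all con-2c libraries (log2 change -1.24, SE 0.073, adjusted p = 8.81e-10 by edgeR), and si-2c lay between. MRPS31 (chr11:15450698-15472320), a small-subunit protein particular to mitochondria, had 196, 200.4 and 161 CPM across con-2c libraries, 73.7, 75.2 and 73.8 across con-4c, 62.1, 69.9 and 66.2 across si-2c, and 188, 195 and 190.2 across si-4c. The con-4c and si-2c libraries were low and the others high (log2 change -1.33, SE 0.087, adjusted p = 3.23e-09 by edgeR). MRPL33 (chr3:111428850-111438735), a homologue of bacterial L33, had 82.9, 86.8 and 74.7 CPM across con-2c libraries, 29.3, 29.7 and 30.8 across con-4c, 36.9, 34.02 and 34.8 across si-2c, and 66.9, 65.1 and 68.5 across si-4c, and was lower in con-4c (log2 change -1.45, SE 0.085, adjusted p = 7.86e-10 by edgeR). MRPL34 (chr2:60377904-60378967), a homologue of bacterial L34, had 25.9, 26.9 and 32.2 CPM across con-2c libraries, 10.6, 13.1 and 10.8 across con-4c, 17.1, 19.7 and 13.3 across si-2c, and 34.6, 29.5 and 30.4 across si-4c, and was lower as well (log2 change -1.30, SE 0.15, adjusted p = 2.73e-06 by edgeR). MRPS6 (chr13:197687906-197756773), the homologue of the S6 protein of the platform, had 14.4, 14.6 and 12.7 CPM across con-2c libraries, 6.55, 6.83 and 5.14 across con-4c, 7.504, 10.2 and 8.43 across si-2c, and 13.02, 12.4 and 11.4 across si-4c (log2 change -1.17, SE 0.16, adjusted p = 1.90e-05 by edgeR). Under library totals MRPS14 and MRPS6 kept their direction and missed the fold threshold, at -0.97 and -0.89.

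**Figure D2:**
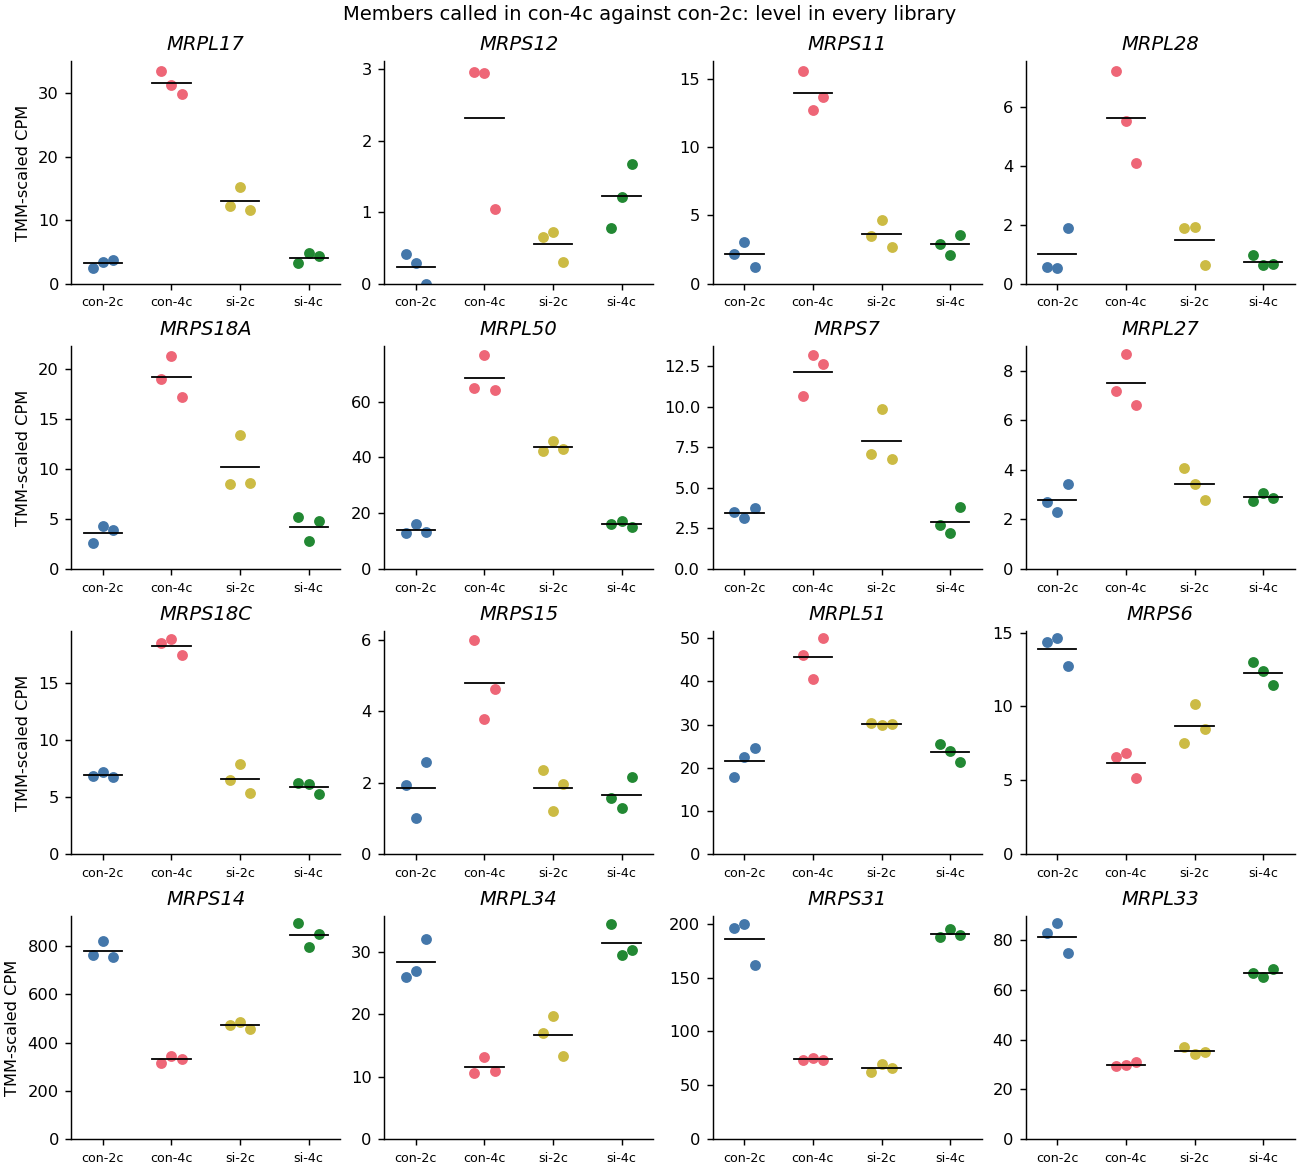
TMM-scaled CPM in every library for the 16 members called in con-4c against con-2c, ordered by log2 fold change; points are libraries, lines are group means and each axis starts at 0. The 11 genes that were higher have their highest library in con-4c, and the 5 that were lower have con-4c below con-2c.

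Further members were chosen by role, whatever their change. MRPL12 and MRPL10 build the stalk that recruits translation factors, and both were sparsely counted. MRPL12 had 0.446, 0 and 0.369 CPM across con-2c libraries, 0.7899, 1.16 and 1.07 across con-4c, 0.633, 0.295 and 0.172 across si-2c, and 0, 0 and 0.567 across si-4c, and was not called (log2 change 1.88, SE 1.28, adjusted p = 0.286 by edgeR). MRPL10 had 0.509, 0 and 1.05 CPM across con-2c libraries, 0.592, 0.464 and 0.358 across con-4c, 0.828, 0.562 and 0.236 across si-2c, and 0.17996, 0.405 and 1.13 across si-4c, and its groups overlapped (log2 change -0.13, SE 1.01, adjusted p = 0.94 by edgeR). For MRPL10 the sign changed with library totals, the replicate block and the omission of single libraries. MRPL3, whose bacterial homologue folds the core of the large subunit, had 56.1, 64.1 and 64.99 CPM across con-2c libraries, 36.7, 33.3 and 31.2 across con-4c, 34.4, 35.8 and 38.2 across si-2c, and 53.7, 62.1 and 63.05 across si-4c. Its con-4c libraries were below con-2c by a log2 difference under 1 (log2 change -0.87, SE 0.10, adjusted p = 2.47e-06 by edgeR). MRPL44, a protein related to ribonuclease III, had 35.04, 29.1 and 25.1 CPM across con-2c libraries, 13.7, 20.4 and 15.6 across con-4c, 20.5, 23.2 and 25.5 across si-2c, and 30.3, 33.6 and 33.8 across si-4c (log2 change -0.84, SE 0.15, adjusted p = 2.89e-04 by edgeR). MRPL58, a peptidyl-tRNA hydrolase built into the large subunit, had 73.2, 66.6 and 66.7 CPM across con-2c libraries, 53.5, 50.4 and 51.3 across con-4c, 46.7, 44.5 and 43.1 across si-2c, and 66.3, 64.03 and 70.5 across si-4c (log2 change -0.41, SE 0.081, adjusted p = 6.92e-04 by edgeR). Both were lower in con-4c in every library without reaching the fold threshold, which MRPL44 passed without con-4c replicate 2 (-1.03). MRPS22, which is particular to mitochondria, had 76.5, 76.6 and 75.7 CPM across con-2c libraries, 54.96, 54.8 and 61.8 across con-4c, 58.8, 61.9 and 62.7 across si-2c, and 80.9, 67.99 and 75.7 across si-4c (log2 change -0.42, SE 0.085, adjusted p = 9.87e-04 by edgeR). MRPS30 is placed in the large subunit by structures despite its symbol, and it had 18.3, 20.5 and 28.1 CPM across con-2c libraries, 26.5, 28.1 and 27.96 across con-4c, 27.4, 30.1 and 30.7 across si-2c, and 33.7, 25.97 and 28.6 across si-4c (log2 change 0.30, SE 0.14, adjusted p = 0.111 by edgeR). MRPS36 has been assigned to a dehydrogenase complex rather than to the ribosome, and it had 67.9, 66.2 and 60.6 CPM across con-2c libraries, 55.9, 54.7 and 51.9 across con-4c, 63.5, 67.1 and 84.9 across si-2c, and 82.1, 89.6 and 78.2 across si-4c (log2 change -0.26, SE 0.10, adjusted p = 0.0624 by edgeR). None of these last 3 genes was called, and the sign of MRPS36 turned under library totals.

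The abundant members other than MRPS14 were lower or level in con-4c. MRPL18, whose bacterial homologue binds 5S ribosomal RNA, had 489.8, 517 and 507 CPM across con-2c libraries, 308, 342 and 325 across con-4c, 373, 389 and 326 across si-2c, and 575, 459 and 469.7 across si-4c (log2 change -0.64, SE 0.092, adjusted p = 3.78e-05 by edgeR). MRPS10, a homologue of bacterial S10, had 416, 399.6 and 292 CPM across con-2c libraries, 169, 205 and 189 across con-4c, 182, 227 and 242 across si-2c, and 422, 363 and 329.6 across si-4c (log2 change -0.98, SE 0.14, adjusted p = 2.33e-05 by edgeR). MRPL15, a homologue of bacterial L15, had 305, 299 and 298 CPM across con-2c libraries, 197, 213 and 214 across con-4c, 173, 179 and 144 across si-2c, and 360.3, 303 and 297 across si-4c (log2 change -0.53, SE 0.092, adjusted p = 2.31e-04 by edgeR). In these genes the con-2c and con-4c libraries did not overlap, and the differences were under the fold threshold. Without con-2c replicate 3 MRPS10 passed the threshold at -1.15, and without con-4c replicate 2 at -1.05. MRPL43 had 197, 193 and 192 CPM across con-2c libraries, 178, 185 and 189 across con-4c, 199, 216 and 172 across si-2c, and 212, 183 and 190.2 across si-4c (log2 change -0.07, SE 0.086, adjusted p = 0.57 by edgeR). The 5 well-expressed members with the smallest differences were MRPS24 (-0.03), MRPL20 (0.06), MRPL43 (-0.07), MRPS33 (-0.09) and MRPL13 (-0.10). Apart from MRPL20, their signs turned positive under library totals, at 0.17 to 0.24. MRPS24 had 106, 116 and 121 CPM across con-2c libraries, 114, 115 and 107 across con-4c, 105, 112 and 98.2 across si-2c, and 107, 96.4 and 102 across si-4c. MRPL20 had 89.3, 79.7 and 90.3 CPM across con-2c libraries, 93.3, 83.5 and 94.4 across con-4c, 85.7, 88.5 and 72.5 across si-2c, and 87.8, 82.9 and 82.3 across si-4c. In both genes the con-2c and con-4c libraries overlapped, and so did si-2c and si-4c. MRPS33 had 66.5, 76.1 and 68.5 CPM across con-2c libraries, 68.9, 65.9 and 64.2 across con-4c, 66.97, 77.2 and 63.2 across si-2c, and 61.6, 68.7 and 66.3 across si-4c. MRPL13 had 122, 141 and 131 CPM across con-2c libraries, 121, 119 and 128 across con-4c, 112, 112 and 111 across si-2c, and 127, 124 and 126 across si-4c. Here too con-2c and con-4c overlapped. In all, 34 of 66 members (51.5%) stayed within 0.5 on the log2 scale, against 45.4% of all genes.

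The classes of members are read beside the shares of all genes called in con-4c against con-2c, 14.4% higher and 3.25% lower. By symbol, 5 large-subunit members were higher and 2 lower of 41 (12.2% and 4.88%), and 6 small-subunit members were higher and 3 lower of 25 (24% and 12%). Among the 38 members with a listed bacterial homologue 9 were higher and 4 lower (23.7% and 10.5%), and among the other 28 members 2 were higher and 1 lower (7.14% and 3.57%). The medians of the classes were -0.26 for the large and -0.11 for the small subunit, and -0.16 for members with and for members without a bacterial homologue. The difference between these classes was not tested.

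The comparison of si-2c with con-2c asked what differed in si embryos at the stage titled 2c. Here 4 members were higher and 4 lower, beside 10.7% and 1.8% of all genes. The members' median was -0.22 against 0.12 for all genes. Under library totals the calls were 5 higher and 1 lower, and the median was 0.18 against 0.52. The 4 higher members were MRPL17 (log2 change 1.99, SE 0.18, adjusted p = 3.90e-07 by edgeR), MRPL50 (log2 change 1.64, SE 0.11, adjusted p = 9.07e-09 by edgeR), MRPS18A (log2 change 1.51, SE 0.25, adjusted p = 2.02e-04 by edgeR) and MRPS7 (log2 change 1.19, SE 0.21, adjusted p = 4.48e-04 by edgeR). Their si-2c libraries were all above the con-2c libraries, as the values given above show. MRPS31 (log2 change -1.49, SE 0.087, adjusted p = 1.38e-09 by edgeR) and MRPL33 (log2 change -1.21, SE 0.084, adjusted p = 1.20e-08 by edgeR) were lower. MRPL47, whose bacterial homologue sits beside the tunnel exit, had 31.9, 33.9 and 34.4 CPM across con-2c libraries, 18.96, 21.3 and 15.96 across con-4c, 15.96, 17.7 and 15.04 across si-2c, and 38.4, 33.1 and 32.2 across si-4c (log2 change -1.04, SE 0.12, adjusted p = 4.83e-06 by edgeR). MRPL39, a protein particular to mitochondria, had 34.5, 27.8 and 29.5 CPM across con-2c libraries, 16.7, 17.7 and 16.4 across con-4c, 13.1, 14.1 and 18.3 across si-2c, and 35.6, 33.8 and 31.5 across si-4c (log2 change -1.01, SE 0.13, adjusted p = 1.43e-05 by edgeR). Both were low in con-4c and si-2c and high in con-2c and si-4c. The lower calls other than MRPS31 did not hold under every setting: under library totals MRPL33 was at -0.81, MRPL47 at -0.65 and MRPL39 at -0.61. MRPL47 was also lost with the stricter filter (-0.96) and without si-2c replicate 3 (-0.99). MRPL39 was also lost with DESeq2 (-0.9955), with the stricter filter (-0.93), without con-2c replicate 1 or si-2c replicate 1 (-0.92) and without si-2c replicate 2 (-0.96). On the adjusted p alone 6 members were higher and 22 lower, beside 16.6% and 12.3% of all genes. The groups did not overlap in 31 members, and in 41.7% of all genes.

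The comparison of si-4c to con-4c addressed the stage titled 4c. The calls were 6 higher and 9 lower, beside 3.12% and 15.8% of all genes (19% in either direction), and the members' median was 0.12 against -0.11. With library totals 3 were higher and 10 lower, and the median was -0.14 against -0.37. Lower in si-4c were MRPL17 (log2 change -2.94, SE 0.18, adjusted p = 1.71e-09 by edgeR), MRPL28 (log2 change -2.89, SE 0.50, adjusted p = 2.27e-04 by edgeR), MRPS11 (log2 change -2.28, SE 0.29, adjusted p = 1.02e-05 by edgeR), MRPS18A (log2 change -2.18, SE 0.25, adjusted p = 2.75e-06 by edgeR), MRPL50 (log2 change -2.09, SE 0.11, adjusted p = 1.97e-10 by edgeR), MRPS7 (log2 change -2.06, SE 0.22, adjusted p = 1.19e-06 by edgeR), MRPS18C (log2 change -1.63, SE 0.16, adjusted p = 4.13e-07 by edgeR), MRPS15 (log2 change -1.53, SE 0.36, adjusted p = 0.00296 by edgeR) and MRPL27 (log2 change -1.38, SE 0.23, adjusted p = 1.29e-04 by edgeR). These 9 genes were called under every alternative in which they were tested, and each was among the members higher in con-4c than in con-2c, a comparison that shares the con-4c libraries. Higher in si-4c were MRPL34 (log2 change 1.45, SE 0.15, adjusted p = 7.64e-07 by edgeR), MRPS31 (log2 change 1.36, SE 0.087, adjusted p = 2.18e-09 by edgeR), MRPS14 (log2 change 1.36, SE 0.074, adjusted p = 2.58e-10 by edgeR) and MRPL33 (log2 change 1.16, SE 0.084, adjusted p = 1.22e-08 by edgeR). MRPL45, which helps to anchor the ribosome at the inner membrane, had 8.02, 6.54 and 4.704 CPM across con-2c libraries, 3.88, 4.51 and 3.77 across con-4c, 3.51, 5.303 and 6.35 across si-2c, and 8.58, 7.84 and 10.99 across si-4c (log2 change 1.17, SE 0.24, adjusted p = 0.0011 by edgeR). MRPL9, a homologue of bacterial L9, had 15.8, 11.2 and 13.4 CPM across con-2c libraries, 9.28, 7.95 and 8.58 across con-4c, 10.4, 8.57 and 10.04 across si-2c, and 16.7, 18.2 and 20.3 across si-4c (log2 change 1.10, SE 0.15, adjusted p = 2.14e-05 by edgeR). Both had their highest library in si-4c, and under library totals they missed the fold threshold, at 0.92 and 0.84, as MRPL33 did at 0.90. MRPL9 also missed it with the stricter filter (0.99). Without con-4c replicate 2, 10 members were called higher. Without a minimum fold 24 were higher and 16 lower, beside 15.1% and 21.7% of all genes, and the groups did not overlap in 45 members and in 50.9% of all genes.

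The stage comparison within si embryos, si-4c against si-2c, shares no library with con-4c against con-2c. It called 4 members higher and 4 lower, beside 1.47% and 11.9% of all genes, with a members' median of 0.19 against -0.13. Under library totals 1 was higher and 5 lower, and the median was -0.19 against -0.51. The lower members were MRPL17 (log2 change -1.66, SE 0.18, adjusted p = 2.48e-06 by edgeR), MRPL50 (log2 change -1.45, SE 0.11, adjusted p = 3.66e-08 by edgeR), MRPS7 (log2 change -1.44, SE 0.22, adjusted p = 8.35e-05 by edgeR) and MRPS18A (log2 change -1.27, SE 0.25, adjusted p = 8.78e-04 by edgeR). All of them were higher in con-4c than in con-2c, so the stage difference ran in opposite directions in con and si embryos. The higher members were MRPS31 (log2 change 1.53, SE 0.087, adjusted p = 9.82e-10 by edgeR), MRPL39 (log2 change 1.15, SE 0.13, adjusted p = 3.76e-06 by edgeR), MRPL47 (log2 change 1.09, SE 0.12, adjusted p = 3.00e-06 by edgeR) and MRPL24 (log2 change 1.06, SE 0.35, adjusted p = 0.0336 by edgeR). Under library totals the calls of MRPL39 (0.76) and MRPL47 (0.71) were lost, and with the stricter filter that of MRPL47 (0.99). MRPL24, a homologue of bacterial L24, had 1.43, 2.91 and 3.44 CPM across con-2c libraries, 2.304, 1.49 and 1.69 across con-4c, 1.78, 1.71 and 1.24 across si-2c, and 3.45, 2.14 and 4.27 across si-4c, and its call was lost under library totals, with the replicate block and without any one of si-2c replicates 1, 2 and 3 or si-4c replicates 1 and 3, with a log2 change of 0.68 to 1.29 over all settings. No member was called in the same direction in both stage comparisons, while 4 went from higher to lower and MRPS31 from lower to higher. The fold changes had opposite signs in 53 of 66 members (80.3%) and in 77.0% of all genes, and as a description Pearson's r across the members was -0.73 against -0.74 across all genes, which are not independent replicates and share library depth and scaling. By the adjusted p alone, 26 members were higher and 6 lower, beside 12.1% and 16.9% of all genes, and the groups did not overlap in 35 members and in 42.8% of all genes.

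**Figure D3:**
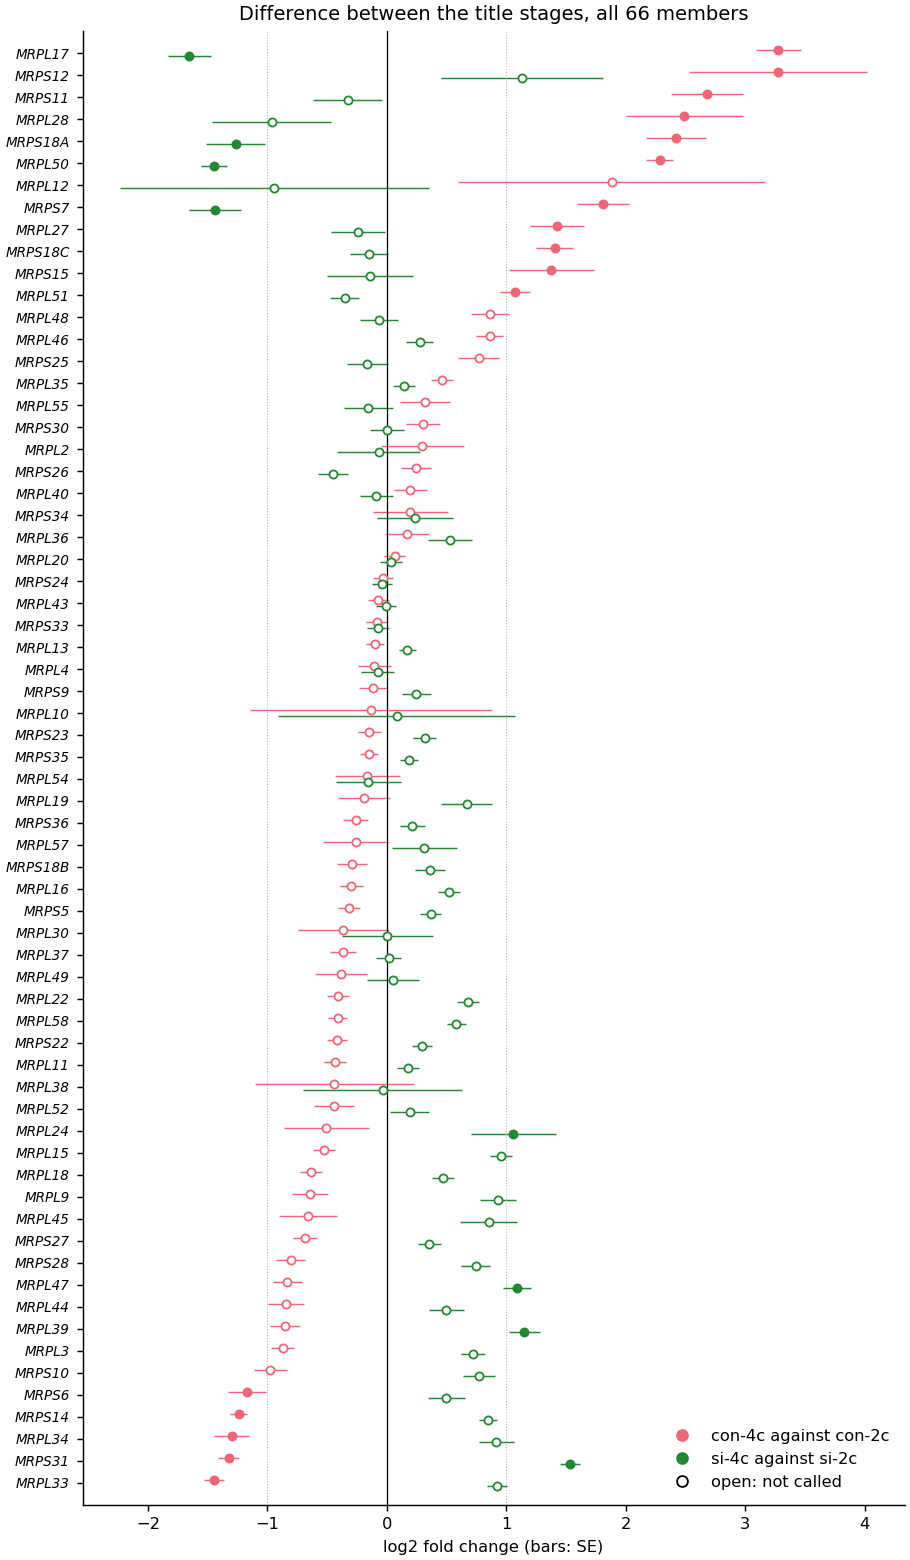
Log2 fold change (points) with its SE (bars) of all 66 members for con-4c against con-2c and for si-4c against si-2c, ordered by the control comparison; filled points were called and dotted lines mark the fold threshold. In 53 members the values lie on opposite sides of 0.

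The difference between these stage differences was tested by an interaction term, (si-4c minus si-2c) less (con-4c minus con-2c). It was called higher in 18 members (27.3%) and lower in 10 (15.2%), beside 9.87% and 22.5% of all genes, and the members' median was 0.36 against -0.23. Under library totals the split turned to 8 higher and 16 lower, with medians of -0.29 and -0.88. The distance between the medians of members and all genes was 0.60, and 0.59 under library totals, 0.31 with the stricter filter and 1.15 without a filter. The most negative values were those of MRPL17 (log2 change -4.93, SE 0.26, adjusted p = 1.15e-10 by edgeR), MRPL50 (log2 change -3.73, SE 0.16, adjusted p = 5.70e-12 by edgeR), MRPS18A (log2 change -3.69, SE 0.35, adjusted p = 2.07e-07 by edgeR), MRPL28 (log2 change -3.45, SE 0.70, adjusted p = 6.29e-04 by edgeR) and MRPS7 (log2 change -3.25, SE 0.31, adjusted p = 1.77e-07 by edgeR). MRPS11, MRPL27, MRPS18C, MRPS15 and MRPL51 were negative as well, at -3.01, -1.66, -1.55, -1.52 and -1.43. The most positive were MRPS31 (log2 change 2.86, SE 0.12, adjusted p = 8.09e-12 by edgeR), MRPL33 (log2 change 2.37, SE 0.12, adjusted p = 6.35e-11 by edgeR), MRPL34 (log2 change 2.22, SE 0.21, adjusted p = 1.60e-07 by edgeR) and MRPS14 (log2 change 2.09, SE 0.10, adjusted p = 5.20e-11 by edgeR). The remaining positive calls were MRPL39, MRPL47, MRPS10, MRPS6, MRPL3, MRPL9, MRPL24, MRPS28, MRPL45, MRPL15, MRPL44, MRPL18, MRPL22 and MRPS27, from 2.00 down to 1.04. Of the 18 positive calls 8 and of the 10 negative calls 9 were kept under every alternative in which they were tested, and none changed sign. With no minimum fold 31 were positive and 14 negative, beside 18.2% and 27.3% of all genes.

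The crossed comparisons set each si group beside controls whose title gives the other stage. Between si-4c and con-2c no member was called in either direction, beside 0.0333% of all genes called higher and 0.3% called lower (0.333% in either direction). At an unadjusted p below 0.05 there were 11 of 66 members and 11.3% of all genes, and DESeq2 called 0 members and 0.99% of all genes. On the log2 scale 61 of 66 members (92.4%) were within 0.5 against 72.7% of all genes. The largest difference was that of MRPS12 (log2 change 2.35, SE 0.74, adjusted p = 0.206 by edgeR), named after its value was seen, with 13, 10 and 0 counts in con-2c and 26, 42 and 56 in si-4c. The groups did not overlap in 13 members and in 14.1% of all genes. Between si-2c and con-4c 6 members were lower and 0 higher, beside 1.63% and 0.161% of all genes. At an unadjusted p below 0.05 there were 28 of 66 members beside 19.3% of all genes, and DESeq2 called 7 members beside 2.97% of all genes it adjusted. The 6 were MRPS11 (log2 change -1.95, SE 0.29, adjusted p = 3.46e-04 by edgeR), MRPL28 (log2 change -1.93, SE 0.47, adjusted p = 0.0179 by edgeR), MRPS18C (log2 change -1.48, SE 0.16, adjusted p = 1.41e-05 by edgeR), MRPS15 (log2 change -1.38, SE 0.35, adjusted p = 0.0234 by edgeR), MRPL17 (log2 change -1.28, SE 0.17, adjusted p = 1.20e-04 by edgeR) and MRPL27 (log2 change -1.13, SE 0.22, adjusted p = 0.00391 by edgeR). All of them have a listed bacterial homologue, as 38 of the 66 members do. In MRPS11, MRPL28, MRPL27, MRPS18C and MRPS15 the comparison of si-2c with con-2c made no call (log2 fold changes of 0.73, 0.56, 0.29, -0.07 and -0.01), while MRPL17 was called there. The calls of MRPL27, MRPL28 and MRPS15 were lost without si-2c replicate 3 (-0.999, -1.56 and -1.43), leaving 3, those of MRPL28 and MRPS15 also without con-4c replicate 1 (-1.701 and -1.19), that of MRPL28 without con-4c replicate 2 (-1.94), and that of MRPS15 without con-4c replicate 3 (-1.41) or si-2c replicate 2 (-1.16). Without a minimum fold 4 members were higher and 13 lower, beside 2.22% and 5.32% of all genes, and the groups did not overlap in 29 members and in 27.1% of all genes.

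**Figure D4:**
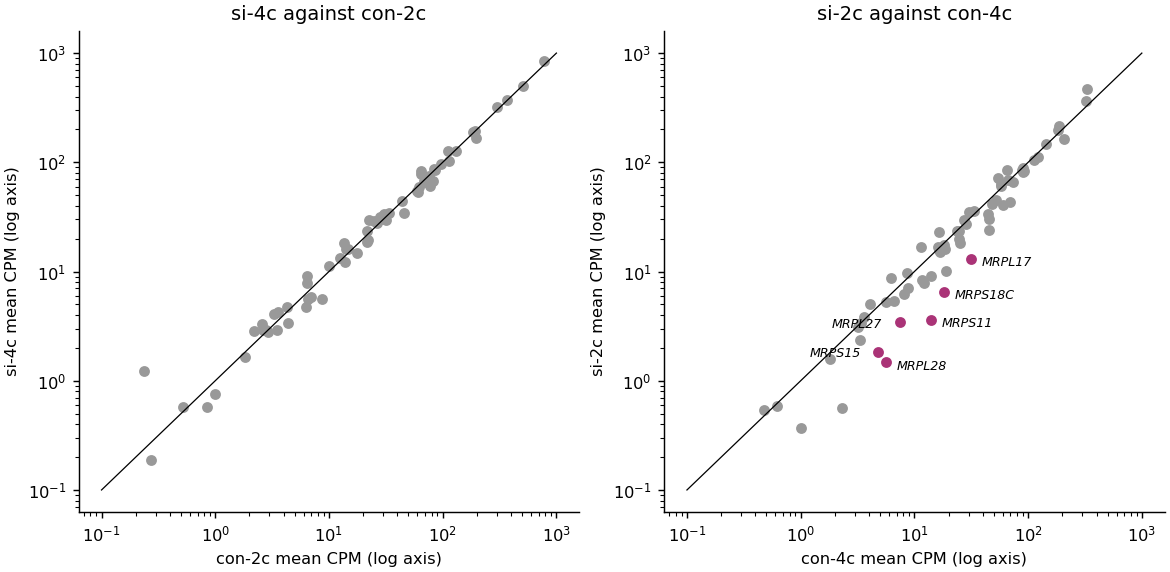
Mean TMM-scaled CPM of the 66 members (log axes, n = 3 per group) in si-4c against con-2c on the left and in si-2c against con-4c on the right; coloured points were called and the line marks equal levels. No member is coloured on the left, and 6 lie below the line as called on the right.

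Other parts of mitochondrial translation were read from lists of genes, and those named here were picked after their values were seen. Of 5 further mitochondrial ribosome proteins with other symbols, 2 were higher in con-4c than in con-2c and none lower, beside 14.4% and 3.25% of all genes. CHCHD1, a small-subunit protein, was at 8.85 ± 2.096 CPM across con-2c libraries, 21.2 ± 3.24 across con-4c, 12.3 ± 1.64 across si-2c and 8.07 ± 0.157 across si-4c (mean ± SD, n = 3, log2 change 1.26, SE 0.17, adjusted p = 2.30e-05 by edgeR), and the si-4c libraries were below those of con-4c (-1.40). DAP3, a GTP-binding protein of the small subunit, was at 3.58 ± 0.8199 CPM across con-2c libraries, 7.26 ± 0.649 across con-4c, 4.46 ± 0.244 across si-2c and 3.93 ± 0.921 across si-4c (log2 change 1.02, SE 0.22, adjusted p = 0.00166 by edgeR). Of 16 translation factors and mRNA regulators 3 were higher in con-4c (18.8%, near the 14.4% of all genes) and none lower. SLIRP, a partner of LRPPRC in stabilising mitochondrial mRNAs, was at 1.62 ± 0.196 CPM across con-2c libraries, 10.8 ± 1.32 across con-4c, 4.84 ± 0.633 across si-2c and 1.73 ± 0.08798 across si-4c (log2 change 2.74, SE 0.21, adjusted p = 2.15e-08 by edgeR). MTRF1L, a release factor, was at 3.03 ± 0.534 CPM across con-2c libraries, 11.8 ± 2.24 across con-4c, 5.87 ± 0.273 across si-2c and 2.78 ± 0.377 across si-4c (log2 change 1.96, SE 0.20, adjusted p = 9.40e-07 by edgeR), and TUFM, the elongation factor Tu of mitochondria, at 4.24 ± 0.536 CPM across con-2c libraries, 10.7 ± 0.792 across con-4c, 6.004 ± 0.191 across si-2c and 4.68 ± 1.51 across si-4c (log2 change 1.33, SE 0.21, adjusted p = 8.94e-05 by edgeR). In si-4c against con-4c, where 15.8% of all genes were lower, the same list had 3 genes lower, namely SLIRP (-2.65), MTRF1L (-2.09) and TUFM (-1.19).

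Of 25 tested factors that assemble the mitochondrial ribosome 2 were higher in con-4c and 1 lower (8% and 4%, beside 14.4% and 3.25% of all genes). MALSU1, which keeps the subunits apart while the large subunit matures, was at 0.6404 ± 0.2699 CPM across con-2c libraries, 36.5 ± 2.16 across con-4c, 18.7 ± 3.77 across si-2c and 0.934 ± 0.207 across si-4c. Its con-2c libraries held 63 counts in all and its con-4c libraries 3338 (log2 change 5.82, SE 0.25, adjusted p = 1.12e-11 by edgeR), and si-4c was lower than con-4c (-5.28). NOA1, a GTPase of small-subunit assembly, was at 3.58 ± 1.47 CPM across con-2c libraries, 10.3 ± 2.15 across con-4c, 5.95 ± 0.777 across si-2c and 3.86 ± 0.3396 across si-4c (log2 change 1.53, SE 0.25, adjusted p = 1.38e-04 by edgeR). FASTKD2, which acts on the large ribosomal RNA, went the other way, at 105 ± 18.8 CPM across con-2c libraries, 47.1 ± 1.302 across con-4c, 42.9 ± 9.38 across si-2c and 88.2 ± 8.66 across si-4c (log2 change -1.16, SE 0.14, adjusted p = 7.02e-06 by edgeR). For these factors si-4c against con-4c gave 1 higher and 5 lower, beside 3.12% and 15.8% of all genes. Of 21 mitochondrial tRNA synthetases and related enzymes 1 was higher and 1 lower in con-4c (4.76% each). RARS2, the arginyl-tRNA synthetase, was at 449 ± 79.6 CPM across con-2c libraries, 222 ± 14.9 across con-4c, 211 ± 33.9 across si-2c and 444 ± 25.9 across si-4c (log2 change -1.02, SE 0.12, adjusted p = 6.09e-06 by edgeR). AARS2, the alanyl-tRNA synthetase, had 0 counts in con-2c and 113 in con-4c over 3 libraries each, so no fold is given. None of the 13 proteins encoded in mitochondrial DNA was in the table under its usual symbol, and they were not analysed here.

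Beside the members, the 67 nuclear genes of oxidative phosphorylation had 9 higher and 4 lower in con-4c against con-2c with a median of -0.16, equal to that of the members after rounding. The cytosolic ribosomal protein genes had 38 higher and 1 lower of 66 tested, with a median of 1.30. In si-4c against con-4c the counts were 2 higher and 9 lower for oxidative phosphorylation and 1 higher and 40 lower for the cytosolic ribosome, beside 6 and 9 for the members. In si-2c against con-4c 24 cytosolic ribosomal protein genes, 3 oxidative phosphorylation genes and 6 members were lower. Over all genes the shares called higher and lower were 14.4% and 3.25% in the first of these comparisons and 3.12% and 15.8% in the second, and 1.63% were lower in si-2c against con-4c. The shares of the oxidative phosphorylation genes were 13.4% and 5.97% in the first and, near those of all genes, 2.99% and 13.4% in the second. These lists were not tested against each other.

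**Figure D5:**
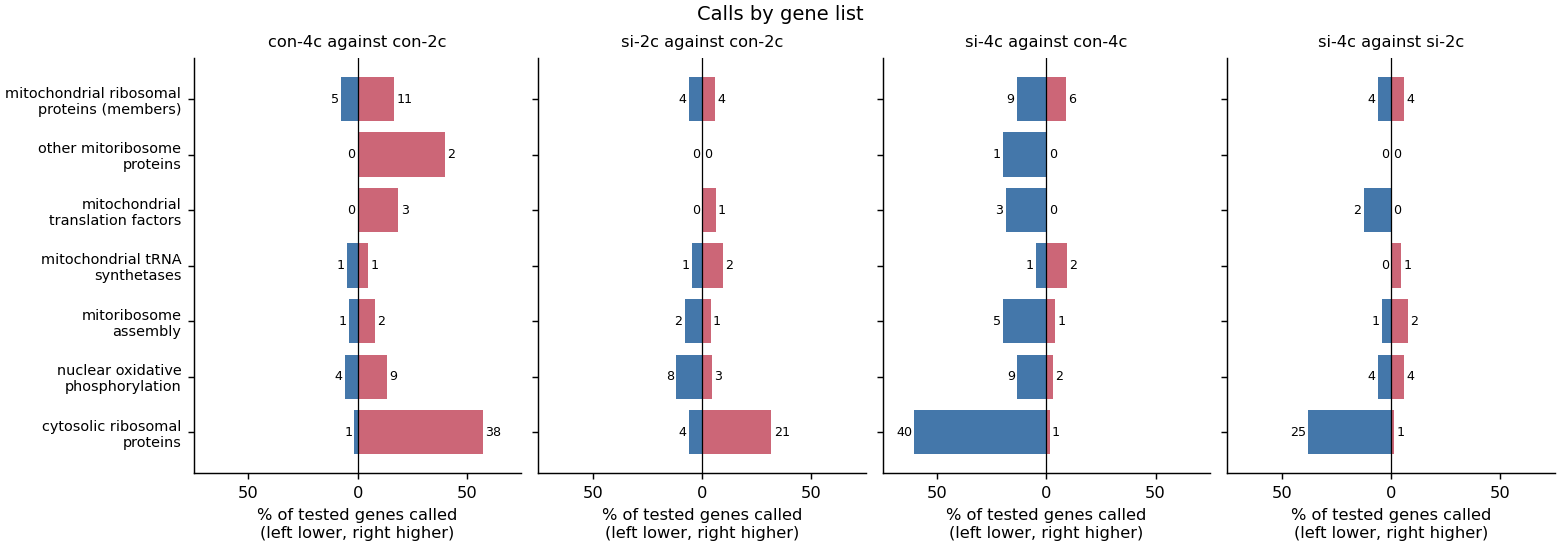
Percentage of tested genes called higher (right) and lower (left) in each of 4 comparisons for the members and for 6 other gene lists; numbers beside the bars are gene counts. The members have 11 higher and 5 lower in con-4c against con-2c, where cytosolic ribosomal protein genes have 38 and 1.

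The members are spread over 17 chromosomes of Sscrofa11.1, with at most 8 on one, by the RefSeq annotation matched on symbol for all 66. RefSeq lists 65 of them as protein coding and MRPS12 as a long non-coding RNA. The spans of 22 members overlap another gene and 20 more have one within 500 bases, and since no source used here states how strand was counted, reads of overlapping genes cannot be told apart. This holds for MRPL17, MRPL27, MRPL28, MRPS7, MRPS15, MRPS18C and MRPS6 among the members called in con-4c against con-2c, for MRPL47 and MRPL9 among those called in a comparison of si libraries, and for MRPL3, MRPL22 and MRPS27 among those called in the interaction. For 9 of the 16 members called in con-4c against con-2c, 11 genes that overlap or lie within 500 bases were tested, and 1 was called, RSPH9 next to MRPS18A (log2 change 4.02, SE 1.25, adjusted p = 0.0186 by edgeR). MRPS11 and MRPL46, 38 bases apart on chromosome 1, were both above con-2c in con-4c, at 2.68 for MRPS11, and MRPL46 was below the fold threshold (log2 change 0.86, SE 0.11, adjusted p = 1.34e-05 by edgeR).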

How the data were processed

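The 12 SMART-seq libraries were taken as deposited. The authors deposited unnormalised read counts for each Ensembl gene identifier. The submitters' processing notes name cutadapt 1.9, HISAT2 2.2.1, StringTie 2.1.6, DESeq2, edgeR and the build Sscrofa11.1. The counting program, annotation release, strand setting and treatment of reads matching several genes are not given in the sources used here.

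R 4.3.3 and edgeR 4.0.16 were used for testing. The filterByExpr function kept 17995 genes, TMM scaling factors ran from 0.852 to 1.21, and a single quasi-likelihood model held the 4 group means of all libraries (biological coefficient of variation 27.3%). P-values were adjusted by Benjamini-Hochberg over all genes tested, and the call thresholds were those of the study. The SE of a log2 change is its size over the root of the F value. The test was run on simulated counts of constant dispersion as a check of the code, and no result here rests on that check. A member that was not called is not shown to be unchanged. No library was a copy of another within its group (a chi-square of 7.27 to 38.6 for each degree of freedom). The labels do not say whether the pools came from separate fertilisations, so p-values measure the spread between these libraries, which may be technical. Amplified reads carried no molecular identifiers.

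The members and gene lists were chosen with earlier results of these data known. Named were the 8 higher and 8 lower called members with the smallest p in each comparison between adjacent groups that had at least 10 CPM in the higher group, all members called in a crossed comparison, members fixed by role, the 5 most abundant, and the 5 of at least 10 CPM with the smallest stage difference in controls. Other members are named to complete a count. MRPS16, fixed by role, was not analysed here. Alternatives were DESeq2 1.42.0, library totals, a stricter filter (10 CPM in 3 libraries), no filter, no minimum fold, the replicate block and leaving out each library. A planned motif search was not run, as no promoter sequence was used here.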

Additional observations from a re-analysis of the deposited data

Results flagged for a closer look

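The difference between the stages was itself different in con and si embryos for 28 members by edgeR's interaction term, 18 in the positive and 10 in the negative direction (log2 of the stage difference in si libraries minus that in control libraries). Over all genes tested 9.87% were positive and 22.5% negative (32.4% in either direction) with TMM scaling. Under library totals the members split into 8 positive and 16 negative, and the median of all genes moved as well, from -0.23 to -0.88. The members' median was above that of all genes by 0.60 with TMM scaling and by 0.59 with library totals. Among the named members the negative values were those of MRPL17 (-4.93), MRPL50 (-3.73), MRPS18A (-3.69), MRPL28 (-3.45), MRPS7 (-3.25), MRPS11 (-3.01), MRPL27 (-1.66), MRPS18C (-1.55), MRPS15 (-1.52) and MRPL51 (-1.43). The named members with positive values were MRPS31 (2.86), MRPL33 (2.37), MRPL34 (2.22), MRPS14 (2.09), MRPL39 (2.00), MRPL47 (1.92), MRPS10 (1.75), MRPS6 (1.67), MRPL3 (1.59), MRPL9 (1.58), MRPL15 (1.48), MRPL44 (1.34) and MRPL18 (1.10). MRPL18 and MRPS15 were the least stable of these: MRPL18 missed the fold threshold, at 0.45 under library totals, 0.91 with the stricter filter (10 CPM in 3 libraries) and 0.9996 without si-4c replicate 1. MRPS15 stayed past the fold threshold and missed that of the adjusted p without con-2c replicate 2 (-1.22), con-4c replicate 1 (-1.32), si-2c replicate 1 (-1.305) or si-4c replicate 2 (-1.356).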

How the results depend on the processing

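Of 1485 values of named members under the alternatives, 1423 kept their direction and stayed called or uncalled, 39 lost their call by the fold or the adjusted p, 10 were newly called and 13 changed sign. No called member changed sign in the comparison in which it was called.

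With library totals as the only scaling the lower calls were 3 in con-4c over con-2c and 1 in si-2c over con-2c, the higher calls were 3 in si-4c over con-4c and 1 in si-4c over si-2c, and the interaction had 8 higher and 16 lower. With the filter of 10 CPM in 3 libraries, which left 50 members, the higher calls were 7 in con-4c over con-2c and 2 in si-4c over si-2c, and the lower calls 2 in si-2c over con-2c and 3 in si-2c over con-4c. Without a minimum fold the lower calls were 24 in con-4c over con-2c, 22 in si-2c over con-2c, 16 in si-4c over con-4c and 13 in si-2c over con-4c, and the higher calls 24 in si-4c over con-4c, 26 in si-4c over si-2c, 4 in si-2c over con-4c and 31 in the interaction. Fewer genes tested or the lower threshold is part of how these alternatives are built, and for library totals the cause was not tested. Library totals also moved the median of all genes, from 0.11 to 0.38 in con-4c over con-2c and from -0.23 to -0.88 in the interaction. The members' distance from it was -0.27 and -0.29 in the first and 0.60 and 0.59 in the second. Apart from no minimum fold, shares of all genes are not set beside these counts or those of leaving out a library. Such counts alone are not a result about the members.

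Leaving out each library gave 10 to 11 higher and 5 to 8 lower in con-4c over con-2c (8 without con-4c replicate 2), 4 to 5 and 3 to 4 in si-2c over con-2c, 6 to 10 and 9 to 10 in si-4c over con-4c (10 higher without con-4c replicate 2), 3 to 6 and 4 to 5 in si-4c over si-2c, 0 higher and 3 to 7 lower in si-2c over con-4c (3 without si-2c replicate 3), 0 in both directions in si-4c over con-2c, and 16 to 19 and 9 to 12 in the interaction. With the replicate block the higher calls in si-4c over si-2c were 3 in place of 4, and no other count moved. None of the 18 pairs of libraries with the same number correlated above 0.1 in their deviations from the group means (-0.0496 to 0.0290), and 3 of 12 libraries correlated best with their own number. No pairing by number was seen, and with 3 libraries in a group this cannot exclude a shared fertilisation or batch.

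The 13 sign changes among these values were of uncalled differences in con-4c over con-2c. Small uncalled differences of other comparisons also changed sign, as MRPS15 (-0.30 to 0.38) and MRPS18C (-0.22 to 0.32) did in si-2c over con-2c. MRPL10 lay between -0.723 and 0.870 as single libraries were left out and became positive under library totals (0.087), with the replicate block (0.243), without con-2c replicate 3 (0.870) and without con-4c replicate 3 (0.0265). Under library totals MRPL13 was at 0.174, MRPL43 at 0.200, MRPS24 at 0.237, MRPS33 at 0.189 and MRPS36 at 0.0152. Under the stricter filter MRPL43 was at 0.0184, MRPS24 at 0.0581 and MRPS33 at 0.0056, and DESeq2 put MRPS24 at 0.00047. The cause was not tested. Counts of the low members (MRPL10, MRPL12, MRPL38 and MRPS12) limit what can be said of them.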

Other observations

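Some genes next to members were called where the member was not, and they are named here after their values were seen. FAU, which encodes a fusion of a ubiquitin-like protein with a cytosolic ribosomal protein, overlaps the span of MRPL49, and was higher in con-4c libraries of the control comparison (log2 change 6.56, SE 0.19, adjusted p = 2.18e-13 by edgeR) while MRPL49 was not called (-0.38). TWNK, the helicase of mitochondrial DNA replication, overlaps MRPL43 and was higher in con-4c (log2 change 2.06, SE 0.29, adjusted p = 2.65e-05 by edgeR), with MRPL43 at -0.07. MITD1, 35 bases from MRPL30, was lower (log2 change -1.87, SE 0.20, adjusted p = 1.05e-06 by edgeR), with MRPL30 at -0.36.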
